A study of Homo sapiens with 6 samples.

Results

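Antisense long noncoding RNA (lncRNA) genes were followed in 6 RNA-seq libraries labelled Huh7, an established cell line that was grown out of a human liver carcinoma. A gene was taken as antisense when GENCODE release 29 gives it the gene type antisense, and its transcript rows were summed, leaving out ZFAS1. This found 5573 antisense genes among 58478 genes in the table. Libraries C1 to C3 came from cells at 21% oxygen (normoxia) and libraries C4 to C6 from cells at 1% oxygen (hypoxia). Both groups were labelled wild type (WT), were grown for 24 h at their oxygen level, and shared DMEM with fetal bovine serum and penicillin-streptomycin, with no other agent named. The question was which antisense genes, and which protein-coding genes opposite them, differed in RNA level between the oxygen levels. No separate cultures are described for the replicates, which the labels call biological, and the p-values measure the spread between libraries only, which may be technical. RNA was depleted of ribosomal RNA and the libraries were made strand-specific, per the labels' protocols. Whether the counting used the strand is not given in the sources used here, and without it the reads of an antisense gene and of the gene opposite cannot be told apart.

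An antisense lncRNA is read from the DNA strand opposite to that of another gene and overlaps it, or starts next to it. Several are known to act at their own locus, by recruiting chromatin enzymes, by interfering with transcription of the opposite gene, or by pairing with its RNA. Many others are known only as products of promoters that fire in both directions. In low oxygen the hypoxia-inducible factors (HIF) are stabilised and bind DNA elements with a core of ACGTG or GCGTG, which raises glycolytic, angiogenic and stress genes.

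The depth was 39658910 to 40794783 expected counts per normoxia library and 37621426 to 39627686 per hypoxia library. Of 15 hepatocyte marker genes, 11 were under 1 CPM (counts scaled to the library total) in both groups, and AFP, APOA1, GPC3 and TTR had 0 counts, so the libraries labelled Huh7 lacked defining markers of the labelled cell type. The summed level of the 15 markers, nearly all of it the urea cycle gene CPS1, was 1980 to 2270 CPM in normoxia and 1660 to 1920 CPM in hypoxia. The other hepatocyte markers above 1 CPM in a group were higher in hypoxia: TF (8.24 CPM in normoxia and 12.1 in hypoxia), HNF4A (1.30 and 7.01) and SERPINA1 (0.0669 and 1.83). Of the fibroblast markers 4 of 5, of the endothelial markers 2 of 4 and of the leukocyte markers 3 of 4 were under 1 CPM in both groups, with COL1A2, KDR and PTPRC at 0. The exceptions were COL1A1 (71.4 CPM in normoxia and 56.9 in hypoxia), CDH5 (9.15 and 0.453), PECAM1 (2.11 and 4.86) and CD68 (6.20 and 46.4). The part of these genes' changes in the results below was not tested.

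The starts of 6 antisense genes to which the results return are shown first, as 300-base windows of the RefSeq table for GRCh38.p14 (250 bases before the start and 50 after it), 5′ to 3′ on the gene's own strand. They were chosen as a gene that rose with its partner from almost no counts (UPK1A-AS1), a gene whose window shares 171 bases with that of its partner (HOTTIP), genes that rose while the partner fell (ADAMTS9-AS2, MRPL23-AS1), an abundant gene with a large rise (LUCAT1) and a gene that fell while its partner rose (VPS9D1-AS1). Capitals mark ACGTG or GCGTG on either strand, that is also CACGT or CACGC as printed. The windows are chr19:35673242-35673541 (minus strand, inside UPK1A), chr7:27200171-27200470 (plus strand), chr3:64684620-64684919 (plus strand, inside ADAMTS9), chr11:1989871-1990170 (minus strand), chr5:91314353-91314652 (minus strand) and chr16:89711606-89711905 (plus strand, inside VPS9D1). The RefSeq start lies 1846 bases from the GENCODE start of HOTTIP, 145 from that of LUCAT1, 39 from that of ADAMTS9-AS2 and at the same base for the other 3.
UPK1A-AS1: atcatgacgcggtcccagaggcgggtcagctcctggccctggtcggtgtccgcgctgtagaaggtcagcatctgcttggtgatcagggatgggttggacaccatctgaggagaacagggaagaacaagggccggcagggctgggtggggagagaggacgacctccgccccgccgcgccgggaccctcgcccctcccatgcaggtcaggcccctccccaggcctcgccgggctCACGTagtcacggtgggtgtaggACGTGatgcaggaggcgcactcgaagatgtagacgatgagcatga
HOTTIP: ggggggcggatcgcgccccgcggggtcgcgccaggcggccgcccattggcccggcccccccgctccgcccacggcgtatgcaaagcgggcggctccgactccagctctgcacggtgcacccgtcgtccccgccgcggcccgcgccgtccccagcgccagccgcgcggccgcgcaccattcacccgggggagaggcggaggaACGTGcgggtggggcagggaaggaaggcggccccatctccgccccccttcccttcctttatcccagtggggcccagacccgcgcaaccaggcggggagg
ADAMTS9-AS2: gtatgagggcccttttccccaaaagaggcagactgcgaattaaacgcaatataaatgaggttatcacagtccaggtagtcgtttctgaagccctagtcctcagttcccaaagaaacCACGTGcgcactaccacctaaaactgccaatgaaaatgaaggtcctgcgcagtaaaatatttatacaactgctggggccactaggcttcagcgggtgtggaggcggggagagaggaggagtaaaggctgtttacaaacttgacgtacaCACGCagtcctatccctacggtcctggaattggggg
MRPL23-AS1: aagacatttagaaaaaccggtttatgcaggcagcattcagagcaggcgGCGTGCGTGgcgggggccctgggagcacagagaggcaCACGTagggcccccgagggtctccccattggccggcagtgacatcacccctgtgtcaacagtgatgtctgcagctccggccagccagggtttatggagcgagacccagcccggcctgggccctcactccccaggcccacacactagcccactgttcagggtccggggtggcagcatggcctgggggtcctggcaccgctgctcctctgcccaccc
LUCAT1: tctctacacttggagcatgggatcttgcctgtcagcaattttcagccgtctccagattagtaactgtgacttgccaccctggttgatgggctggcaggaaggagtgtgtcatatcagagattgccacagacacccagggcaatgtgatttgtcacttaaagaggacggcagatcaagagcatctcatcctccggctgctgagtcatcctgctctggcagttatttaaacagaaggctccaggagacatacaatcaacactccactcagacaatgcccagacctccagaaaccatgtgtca
VPS9D1-AS1: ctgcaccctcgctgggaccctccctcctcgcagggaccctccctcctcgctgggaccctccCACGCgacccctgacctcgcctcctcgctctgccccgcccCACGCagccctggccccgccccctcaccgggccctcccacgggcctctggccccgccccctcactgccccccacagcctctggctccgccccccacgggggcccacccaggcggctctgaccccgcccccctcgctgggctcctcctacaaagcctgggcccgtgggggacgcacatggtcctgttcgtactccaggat

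The window of UPK1A-AS1 held 2 matches, that of HOTTIP 1, those of ADAMTS9-AS2 and MRPL23-AS1 3 each and that of VPS9D1-AS1 2, while that of LUCAT1 held 0. In ADAMTS9-AS2, 2 of the matches are the 2 strands of a CACGTG, and in MRPL23-AS1 2 of them overlap in GCGTGCGTG. Among all 27305 windows of the table, 48.4% held at least 1 match to ACGTG or GCGTG, and 21.6% held ACGTG. Of the 1059 antisense genes tested below, 429 had a window, and 62.5% of these held either motif. The share was 59.8% among the 199 that rose in hypoxia, 62.1% among the 66 that fell and 65.9% among the 164 that did not pass the test. For ACGTG alone the shares were 30.7%, 18.2% and 25.6%, and 35.1% among the 74 that rose at least 4-fold. The median GC content was 64.3% in the windows of tested antisense genes and 58.3% over all windows, a difference whose part in these shares was not tested. These are letter matches, not measured binding.

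Most antisense genes had few or no counts in these cells. Of the 5573 genes, 2385 had no count in any library, 3188 had some, and 1059 (19%) passed the filter on low counts and were tested, leaving 4514 untested. Per unit of length the tested genes were low, with a median of 0.724 FPKM (fragments scaled to transcript length and library total, computed from the counts; quartiles 0.379 and 1.56) against 9.49 FPKM for tested protein-coding genes. An FPKM of 1 or more was reached by 417 antisense genes and of 10 or more by 35. Untested genes had a median exonic length of 608 bases, against 1870 for risen, 2189 for fallen and 1606 for tested genes that did not pass.

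As a class, antisense RNA took a larger share of the libraries in hypoxia. Antisense genes held 0.508%, 0.488% and 0.491% of expected counts in normoxia and 0.679%, 0.655% and 0.693% in hypoxia. The groups did not overlap, with means of 0.496% ± 0.0108 and 0.675% ± 0.0191 (SD, n = 3; exact permutation test, two-sided, p = 0.1, the smallest value that 3 against 3 libraries allow). Without the most abundant gene, AL355075.4, the means were 0.330% ± 0.00474 and 0.446% ± 0.00314, and without LUCAT1 as well 0.323% ± 0.00484 and 0.395% ± 0.00245. In bulk RNA, more cells with a transcript and more RNA per cell cannot be told apart.

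Gene by gene, rises outnumbered falls. In the edgeR quasi-likelihood test, with p-values adjusted by Benjamini-Hochberg over all 17396 genes tested and a threshold of 0.05, 459 of the 1059 tested antisense genes rose (43.3%), 162 fell (15.3%) and 438 did not pass. Over all tested genes 72.8% changed, 36.5% upward and 36.3% downward, and over protein-coding genes 77.7% changed, 34.7% upward and 43.0% downward. At least 2-fold rises were seen in 338 antisense genes and at least 2-fold falls in 89, where all genes gave 17.5% and 11.4% and protein-coding genes 13.7% and 12.2%. The median log2 change was 0.48 for tested antisense genes, 0.02 for all genes and -0.08 for protein-coding genes. The groups did not overlap in CPM for 670 antisense genes (63.3%), against 75.7% of all genes and 79.9% of protein-coding genes. Other lncRNA types gave similar counts, with 831 risen (42.1%) and 306 fallen (15.5%) of 1972 tested and a median of 0.41. The intergenic lincRNA genes had 478 risen and 155 fallen of 1043, and the sense intronic genes 89 risen and 39 fallen of 281. The share of calls by gene class is drawn in the bar plot.

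**Figure D1:**
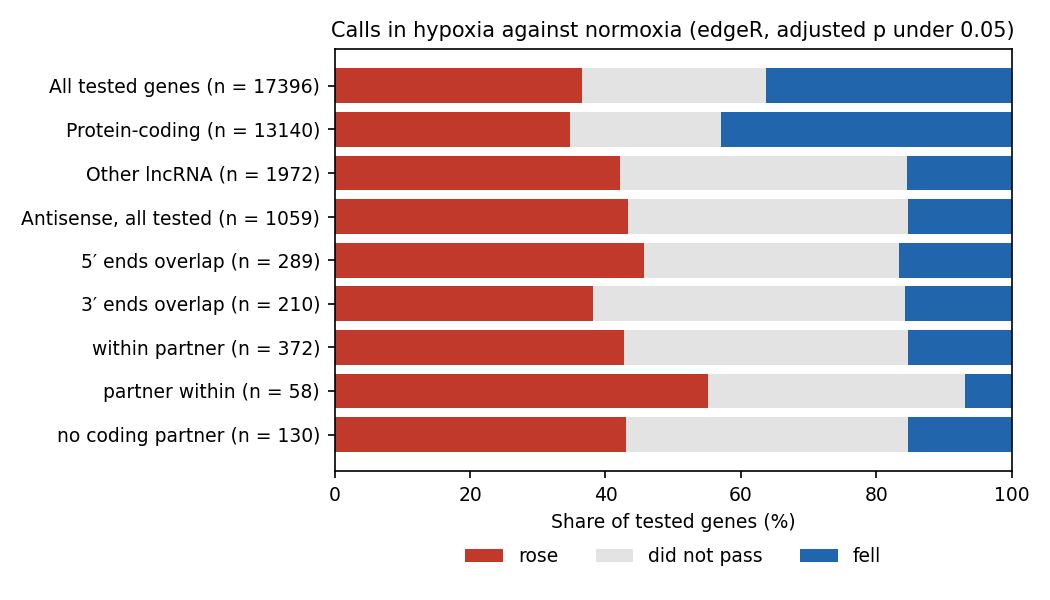
Share of tested genes (horizontal axis, %) that rose, did not pass or fell in hypoxia against normoxia in the edgeR test, for all genes, protein-coding genes, other lncRNA genes and antisense genes, the last also by their position relative to the coding partner, with n in brackets. Antisense genes rose in 43.3% and fell in 15.3% of tests, while protein-coding genes rose in 34.7% and fell in 43.0%.

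The filter on low counts enters these counts, since a gene that reached it in hypoxia alone could hardly fail to be higher there. Of the tested antisense genes, 647 reached the filter's 0.27 CPM in all 3 libraries of both groups, and among these 271 rose and 106 fell, the median log2 change being 0.31. Over all 14943 genes of that kind, 35.4% rose and 39.8% fell, with a median of -0.03. A further 221 antisense genes reached it in all hypoxia libraries only, of which 176 rose and 0 fell (82.2% rose over all genes of that kind), and 95 in all normoxia libraries only, of which 55 fell and 0 rose (55.3% fell over all genes). The other 96 met it in some libraries of both or either group, and 12 rose and 1 fell. Among genes with no count at all in 1 group and 10 or more counts in the other, 34 were found in hypoxia and 9 in normoxia. These were 1.75% and 0.464% of the 1939 antisense genes with 10 or more counts over all libraries, where all 22400 genes of that kind gave 1.29% (290 genes) and 0.464% (104 genes). With scaling by library totals, which moved the median of all genes from 0.025 to -0.13, 398 antisense genes rose and 189 fell, and their median was 0.32.

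By the named-gene rule, the largest rises were of genes almost absent in normoxia. All 8 reached the filter in hypoxia only, which fixed much of their direction. AC021534.1 (chr17:79132722-79136402, plus strand), inside RBFOX3, a neuronal splicing factor gene with which it shares no exon, stood at 0, 0 and 0 CPM in normoxia and 7.80, 9.11 and 7.70 CPM in hypoxia. It was at least 107-fold higher in hypoxia against a floor of 3 counts per library, 0.0765 CPM (edgeR adjusted p = 1.72e-08). AC005481.1, inside PTPRN2, stood at 0 in all 3 normoxia libraries and at 0.982, 1.21 and 0.868 CPM in hypoxia, at least 13.3-fold higher (edgeR adjusted p = 1.11e-05). In none of these hypoxia libraries did the level come near that floor.

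A further 5 of the 8 had 2 or 3 counts in normoxia, so they are given as levels without a fold. FLJ16779, inside NKAIN4, reached 8.75 ± 0.695 CPM in hypoxia, and AC022092.1, head to head with TIFAB, reached 2.38 ± 0.0936 CPM. ALDH1L1-AS2, opposite the folate enzyme gene ALDH1L1, reached 1.99 ± 0.419 CPM (SD, n = 3 for each). LNCTSI and CLDN14-AS1 lie on the same strand of chromosome 21 opposite CLDN14, which encodes a claudin of tight junctions, and their spans overlap. They reached 4.60 ± 0.493 and 4.32 ± 0.419 CPM. The partners of these 7 genes were too low to be tested, at no more than 0.242 CPM in either group.

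UPK1A-AS1 rose together with UPK1A, which encodes a uroplakin of the bladder lining. UPK1A-AS1 (chr19:35667948-35673291, minus strand; 795 exonic bases, 258 of them opposite exons of UPK1A) had 0.0755, 0.175 and 0.0765 CPM in normoxia and 15.8, 15.8 and 15.4 CPM in hypoxia. The 3 hypoxia libraries were nearly equal, and the normoxia values rest on 13 counts over the 3 libraries. The log2 change was 7.12 ± 0.19 (SE; edgeR adjusted p = 2.12e-10). UPK1A-AS1 reached the filter in hypoxia only, so the direction of this test was largely fixed. UPK1A had 0.0503, 0.175 and 0 CPM in normoxia and 9.48, 10.0 and 9.61 CPM in hypoxia, a log2 change of 6.94 ± 0.35. The ratio of both genes' counts within a library had a log2 change of -0.41 ± 0.70 (limma adjusted p = 0.623), so a change in the ratio was not detectable. In hypoxia UPK1A-AS1 stood at 17.2 FPKM and UPK1A at 6.83 FPKM.

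Of the 8 largest falls, VPS9D1-AS1 and AL137002.2 reached the filter in both groups and the other 6 in normoxia only, which fixed much of their direction. TRG-AS1 lies in the T-cell receptor gamma locus (chr7:38341577-38378804, plus strand), with no gene of the annotation's protein-coding type opposite. It had 2.54, 2.82 and 2.93 CPM in normoxia and 0.0561, 0.115 and 0.120 CPM in hypoxia. The hypoxia libraries held 2, 4 and 4 counts of it, near the floor of 3 counts (at most 0.0898 CPM there), so no fold is given; the fitted log2 change was -4.79 ± 0.30 (SE; edgeR adjusted p = 1.26e-07). VPS9D1-AS1 had 23.3, 21.1 and 19.7 CPM in normoxia and 1.40, 1.32 and 1.32 CPM in hypoxia and fell 15.8-fold (edgeR adjusted p = 2.85e-10). The groups lay far apart in both genes. The other 6 of the rule were ZBED9-AS1 (opposite SCAND3; from 2.05 to 0.194 CPM), AL137002.2 (opposite the coagulation factor gene F10; from 3.69 to 0.443 CPM), AC011337.1 (opposite FAT2; from 1.04 to 0.163 CPM), DGUOK-AS1 (from 1.05 to 0.183 CPM), AL160254.1 (in the protocadherin gene PCDH9; from 1.81 to 0.321 CPM) and PCMTD1-DT (from 1.92 to 0.392 CPM). Of their tested coding neighbours, SCAND3, F10 and PCDH9 fell, with log2 changes of -0.50, -1.28 and -1.77. DGUOK, a mitochondrial nucleoside kinase, had 0.05 and did not pass, and PCMTD1, which starts 139 bases from PCMTD1-DT in the other direction, rose by 0.32.

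Per unit of length, 6 genes led the class. AL355075.4 (chr14:20343048-20343685, minus strand) stood far above all others, with 1641, 1550.0 and 1549 CPM in normoxia and 2386, 2241 and 2625 CPM in hypoxia. It spans RPPH1, the RNA of ribonuclease P, on the same strand, and RPPH1, named after its values were seen, rose alongside from 5127 to 7654 CPM, so reads of both cannot be separated. Its log2 change was 0.61 ± 0.06 (edgeR adjusted p = 2.3e-06). PARP2, a DNA repair gene that starts 103 bases away on the other strand, rose by 0.42 ± 0.04.

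LUCAT1, an lncRNA known from stress and interferon responses, rose steeply from a high level. LUCAT1 (chr5:91054834-91314547, minus strand) had 56.1, 58.1 and 58.3 CPM in normoxia and 548, 526 and 541 CPM in hypoxia. The libraries of each group were close together and the groups lay 9.36-fold apart, a log2 change of 3.23 ± 0.04 (edgeR adjusted p = 2.75e-12). Its span reaches the 3′ part of ADGRV1, an adhesion receptor gene, without sharing an exon. ADGRV1 stood at 1.37 ± 0.218 and 1.94 ± 0.496 CPM and did not pass (edgeR adjusted p = 0.0855). In FPKM, LUCAT1 went from 38.5 to 328 FPKM.

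The other 4 abundant genes also rose. AC008514.1, opposite the GABA receptor subunit gene GABRP, rose from 18.2 ± 0.945 to 32.1 ± 2.67 CPM. AC007743.1, head to head with CCDC85A, rose from 93.5 CPM by 0.30 ± 0.06 on the log2 scale, while CCDC85A had 0 counts in all libraries. AC006064.4 and CYP1B1-AS1 are described with their partners. The 6 ranged from 31.6 to 2905 FPKM averaged over the libraries. The plot of CPM by library shows 12 of the genes described.

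**Figure D2:**
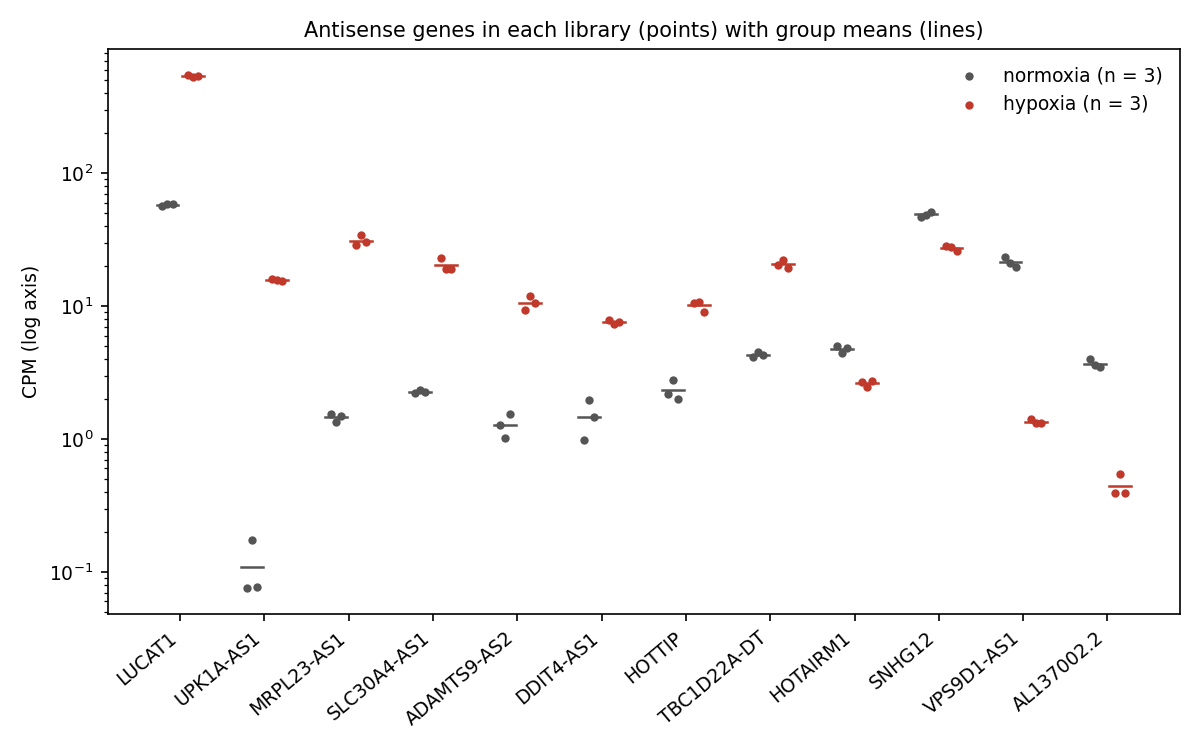
CPM (vertical axis, log scale) of 12 antisense genes in each of the 3 normoxia and 3 hypoxia libraries (points), with the group mean as a line. LUCAT1, UPK1A-AS1, MRPL23-AS1, SLC30A4-AS1, ADAMTS9-AS2, DDIT4-AS1, HOTTIP and TBC1D22A-DT were higher in every hypoxia library, and HOTAIRM1, SNHG12, VPS9D1-AS1 and AL137002.2 were lower.

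The few tested antisense genes opposite HIF targets mostly rose with them. Of a list of 61 known HIF target genes, 23 antisense genes of the table had one as partner, 7 were tested, 5 rose and 2 did not pass. Their median log2 change was 2.38 (all tested genes: 36.5% rose, median 0.02). Of the 5, AC006064.4 and DDIT4-AS1 reached the filter in all libraries of both groups and AC005726.4 in hypoxia only. AL162274.1 and VLDLR-AS1 reached it in some hypoxia libraries and in no normoxia library. The direction of AC005726.4, AL162274.1 and VLDLR-AS1 was thus largely fixed by the filter. The direction of the partners was known when the list was drawn up. DDIT4-AS1 lies inside DDIT4, which encodes an inhibitor of the growth kinase complex mTORC1, and its 847 exonic bases are all opposite DDIT4 exons. It had 0.982, 1.95 and 1.45 CPM in normoxia and 7.85, 7.38 and 7.58 CPM in hypoxia, while DDIT4 had 123, 111 and 112 CPM in normoxia and 596, 636 and 593 CPM in hypoxia. The log2 changes were 2.38 ± 0.20 and 2.40 ± 0.05 (SE), and that of their ratio was 0.02 ± 0.28 (limma adjusted p = 0.945). The counts of the pair thus rose in nearly the same proportion, at 1.05 to 4.93 FPKM for the antisense gene and 64.1 to 305 FPKM for DDIT4. In CPM, DDIT4-AS1 was 1.27% of DDIT4 in normoxia and 1.25% in hypoxia. Whether reads of DDIT4 itself enter the counts of DDIT4-AS1 was not tested.

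AC006064.4 lies inside GAPDH, a glycolytic enzyme gene, with all of its 422 exonic bases opposite GAPDH exons. It had 14.6, 10.6 and 10.4 CPM in normoxia and 68.7, 77.7 and 73.9 CPM in hypoxia, a log2 change of 2.63 ± 0.11 (edgeR adjusted p = 5.58e-09), while GAPDH rose 3.78-fold (log2 change 1.92 ± 0.04). Its FPKM was 1.11% of that of GAPDH in normoxia and 1.81% in hypoxia, and the ratio of their counts rose by 0.72 ± 0.15 on the log2 scale (limma adjusted p = 0.00459). Whether reads of GAPDH itself enter these counts was not tested.

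The other 3 risen genes were low. AL162274.1, inside the mitophagy receptor gene BNIP3 without sharing an exon, rose from 0.0588 to 0.365 CPM, VLDLR-AS1, opposite the lipoprotein receptor gene VLDLR, from 0.109 to 0.409 CPM, and AC005726.4, inside the aldolase gene ALDOC, from 0.0251 to 0.833 CPM, with 3 counts over the normoxia libraries. BNIP3 rose by 2.92 ± 0.04, VLDLR by 2.21 ± 0.24 and ALDOC by 3.09 ± 0.04 on the log2 scale. BHLHE40-AS1 went the other way from its partner in level without passing. BHLHE40, a clock-linked repressor gene that starts 845 bases away, rose by 3.08 ± 0.05, whereas BHLHE40-AS1 had 0.151, 0.400 and 0.433 CPM in normoxia and 0.0280, 0.173 and 0.329 CPM in hypoxia (edgeR adjusted p = 0.246). Its groups overlapped, but the ratio to BHLHE40 fell by 4.24 ± 0.88 (limma adjusted p = 0.00509). RORA-AS1 had 0.494 and 0.496 CPM and did not pass, while the nuclear receptor gene RORA was at 0 counts in normoxia and 0.493 CPM in hypoxia.

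Of 15 HIF pathway genes, 6 antisense genes had one as partner and 1 was tested. This was AC108451.2, inside ARNT2, a dimerisation partner of the HIF alpha subunits. AC108451.2 rose from 0.126 ± 0.00128 to 0.886 ± 0.122 CPM (log2 change 2.78 ± 0.36; edgeR adjusted p = 3.88e-05) and ARNT2 by 2.17 ± 0.04. It reached the filter in hypoxia only, so it could hardly have been tested without being higher there. EGLN3-AS1, in the oxygen sensor gene EGLN3 of the HIF target list, had 0 counts in normoxia and 0.337, 0.346 and 0.210 CPM in hypoxia, at least 3.89-fold higher against the same floor, but it was below the filter and not tested.

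The series title names ferroptosis, a cell death that needs iron and peroxidised lipids. Of 37 ferroptosis genes, 10 antisense genes had one as partner and 4 were tested: 2 rose, 1 fell and 1 did not pass (all tested genes: 36.5% rose and 36.3% fell). The 2 that rose reached the filter in hypoxia only and the 1 that fell in normoxia only, so their directions were largely fixed by it. AC129492.1, opposite the lipoxygenase gene ALOX12B, had 0.604, 0.175 and 0.229 CPM in normoxia and 2.24, 1.99 and 1.80 CPM in hypoxia (edgeR adjusted p = 0.000135), and ALOX12B itself rose from 0.101 to 2.57 CPM. STEAP3-AS1, inside STEAP3, which encodes an iron reductase, rose from 0.0420 to 0.489 CPM (edgeR adjusted p = 0.00251), and STEAP3 from 34.0 to 102 CPM. AC019080.4, inside NFE2L2, which encodes the antioxidant regulator NRF2, fell from 0.353 to 0.117 CPM (edgeR adjusted p = 0.0145), and NFE2L2 fell from 64.5 to 54.2 CPM. That call was lost with DESeq2 (adjusted p = 0.0914), without hypoxia C5 (0.0618) and without normoxia C2 (0.053). ALOX12-AS1 had 6.06 ± 0.261 and 7.03 ± 0.0869 CPM and did not pass (edgeR adjusted p = 0.0715), but passed among genes of 1 CPM or more in 3 libraries (adjusted p = 0.0368).

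The position relative to the coding gene was then considered. A partner is the protein-coding gene with the longest overlap on the other strand, and 4901 of the 5573 antisense genes had one, among them 929 of the 1059 tested. Of the tested genes, 289 overlapped the partner at the 5′ ends of both genes (head to head), and 132 rose and 48 fell. At the 3′ ends (tail to tail) 210 overlapped, with 80 risen and 33 fallen. Within the partner lay 372, with 159 risen and 57 fallen, and 58 spanned the whole partner, with 32 risen and 4 fallen. The last 130 overlapped no coding gene, with 56 risen and 20 fallen, though 73 of them start within 1000 bases of a coding gene that runs the other way. The median log2 changes were 0.55, 0.28, 0.50, 0.73 and 0.53 in this order, beside 0.02 for all genes. The shares that rose were 45.7%, 38.1%, 42.7%, 55.2% and 43.1% in the same order, and those that fell 16.6%, 15.7%, 15.3%, 6.90% and 15.4%. Over all tested antisense genes 43.3% rose and 15.3% fell, and over all tested genes 36.5% rose and 36.3% fell. In every class risen genes outnumbered fallen ones, and the differences between classes were not tested. The classes were not split by the filter on low counts, whose part in these numbers was not tested.

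Both genes of a pair were tested in 779 cases with 731 different partners. The antisense gene rose with a risen partner in 194 pairs and fell with a fallen partner in 53. It rose opposite a fallen partner in 89 and fell opposite a risen partner in 42. In 58 and 23 pairs the antisense gene rose or fell and the partner did not pass, in 100 and 148 the partner alone rose or fell, and in 72 neither passed. So of the 378 pairs in which both changed, 247 (65.3%) moved the same way and 131 the opposite way. Since 283 of these antisense genes and 236 of the partners rose, the totals alone would give 56.2% the same way, and it is this value, not an even split, that the share is read against. Where the partner rose, 57.7% of antisense genes rose and 12.5% fell, where it fell 30.7% rose and 18.3% fell, and where it did not pass 37.9% rose and 15% fell. The median antisense log2 change was 0.97, 0.24 and 0.34 in these pairs, so it was above 0 also opposite fallen partners. The tested antisense genes include 221 that reached the filter on low counts in hypoxia only and 95 in normoxia only. The part of this in these pair values and in those below was not tested.

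Across the 779 pairs the log2 changes of both genes correlated at Spearman's rho 0.29 and Pearson's r 0.31, as a description of pairs measured in the same 6 libraries. The rho was 0.39 over 263 head-to-head pairs, 0.33 over 309 antisense genes within the partner, 0.10 over 182 tail-to-tail pairs and -0.04 over 25 pairs in which the partner lies within the antisense gene. By distance between the start sites it was 0.43 over 189 pairs within 1000 bases, 0.45 over 146 pairs between 1000 and 10000 bases and 0.20 over 444 pairs farther apart. The share of pairs moving the same way, among those in which both changed, was 71.3%, 70.0% and 61.1% in these 3 bins, where the totals alone would give 55.3%, 62.5% and 54.3%. For 71 antisense genes that overlap nothing coding but start within 1000 bases of a coding gene, it was 76.7% (23 of 30, rho 0.38; 58.9% from the totals). For 261 pairs of other lncRNA types with the coding gene opposite, it was 54.7% (70 of 128, rho 0.20; 51.7% from the totals). None of these differences was tested.

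Sharing exon sequence with the partner did not go along with a higher share. Of the 779 pairs, 615 had exons opposite each other, with 185 pairs in the same and 103 in the opposite direction (64.2%, rho 0.27; 55.3% from the totals), while 164 had none, with 62 and 28 (68.9%, rho 0.39; 59.3% from the totals). In 358 pairs the antisense FPKM was under 5% of the partner's, and 104 moved the same way and 55 the opposite way (65.4%; 60.7% from the totals), against 143 and 76 in the other 421 (65.3%; 53.0% from the totals). Among all tested antisense genes, 778 had exons opposite exons of some gene, and 330 rose and 114 fell, with a median of 0.45. The other 281 had none, and 129 rose and 48 fell, with a median of 0.58. In 63 pairs the RefSeq windows of both genes shared bases, and of the 31 in which both changed, 15 rose together, 7 fell together and 9 moved apart. The scatter of both changes is drawn by orientation.

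**Figure D3:**
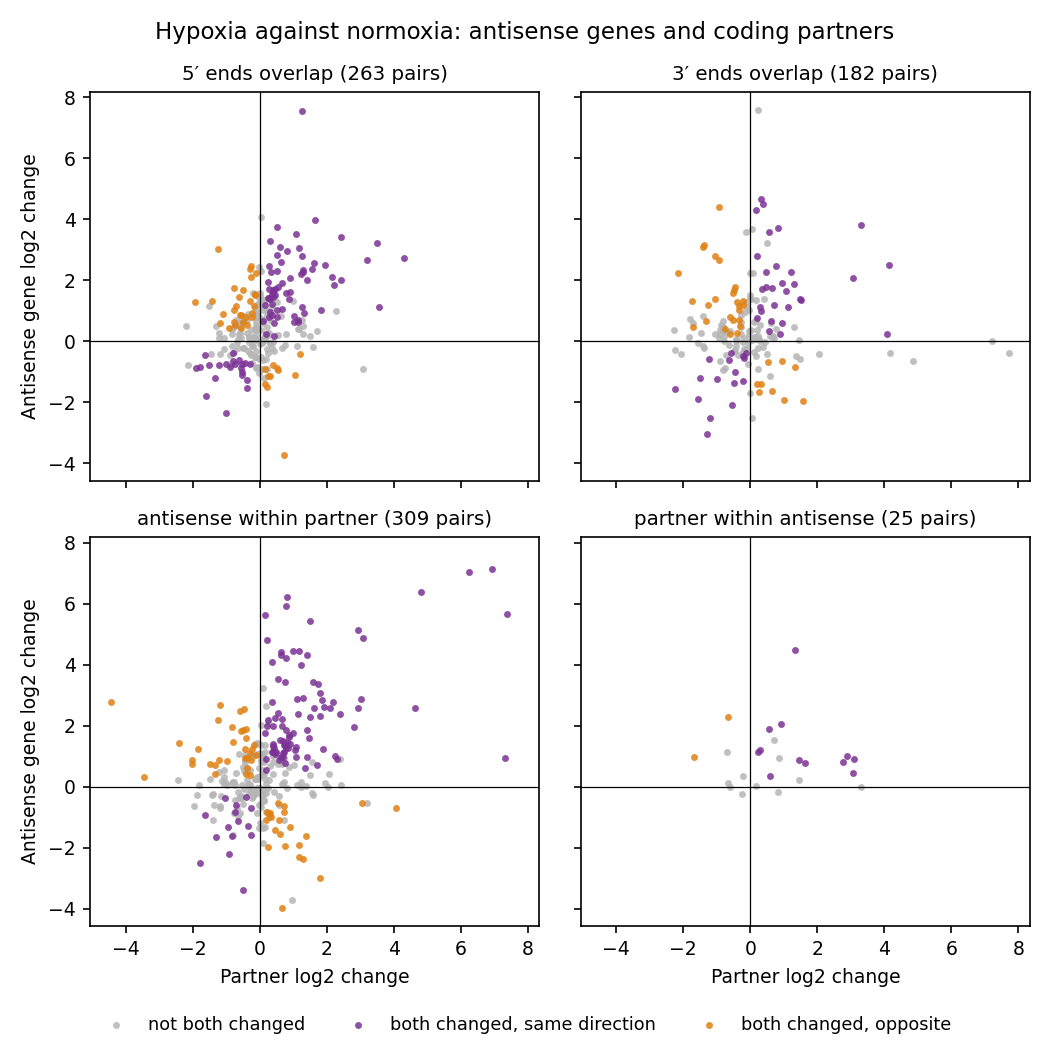
Log2 change (hypoxia against normoxia) of the antisense gene (vertical axis) against that of its coding partner (horizontal axis), 1 point per pair, in 4 panels by orientation: 263 pairs with overlapping 5′ ends, 182 with overlapping 3′ ends, 309 with the antisense gene inside the partner and 25 with the partner inside the antisense gene. Purple points, both changed in the same direction, number 247 and orange points, opposite directions, 131.

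The ratio of antisense to partner counts within each library does not depend on the scaling between libraries. It was tested with limma over all 2848 opposite-strand pairs of a gene of any type with a coding gene, of which 65.3% changed, 37.3% upward and 28.1% downward, with a median log2 change of 0.18. Of the 779 antisense pairs, 305 had a risen ratio (39.2%) and 120 a fallen one (15.4%), with a median of 0.51. The 2069 other pairs had 36.5% risen and 32.9% fallen, with a median of 0.05. Of the 247 pairs that moved the same way, 123 had a changed ratio. In FPKM, the antisense gene was above its partner in 95 of the 779 pairs, under 1% of it in 114, and its median share was 5.70%. Of the 131 pairs that moved apart, 94 had both genes at 1 CPM or more in a group, and those whose log2 changes differed most are named next.

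MRPL23-AS1 rose while MRPL23, a gene of the mitochondrial ribosome, fell. MRPL23-AS1 (chr11:1983237-1989920, minus strand) had 1.54, 1.35 and 1.48 CPM in normoxia and 28.6, 34.0 and 30.6 CPM in hypoxia, and MRPL23 had 18.6, 20.0 and 18.1 CPM in normoxia and 8.25, 10.6 and 11.1 CPM in hypoxia. The log2 changes were 4.41 ± 0.11 (edgeR adjusted p = 1.05e-10) and -0.92 ± 0.11 (edgeR adjusted p = 2.03e-05), and the ratio rose by 5.33 ± 0.14 (limma adjusted p = 9.97e-07). The 2 genes overlap at their 3′ ends, with 85 exonic bases in common. In FPKM, MRPL23-AS1 went from 0.737 to 14.2 FPKM and MRPL23 from 27.6 to 12.7 FPKM, so that their order turned. H19, a highly expressed imprinted lncRNA gene on the same strand whose span ends 5256 bases upstream, rose from 5122 CPM by 2.06 on the log2 scale (named after its values were seen).

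SLC30A4-AS1 rose while the zinc transporter gene SLC30A4 fell. SLC30A4-AS1 (chr15:45448427-45513767, plus strand) had 2.22, 2.35 and 2.24 CPM in normoxia and 23.1, 18.9 and 18.9 CPM in hypoxia, and SLC30A4 had 6.92, 6.70 and 8.54 CPM in normoxia and 3.42, 2.19 and 2.85 CPM in hypoxia. The ratio rose by 4.55 ± 0.16 (limma adjusted p = 2.88e-06), and no library of one group came near the other. Its exons also overlap C15orf48 and the pseudogene HMGN2P46 on the same strand, so its counts may hold reads of these genes.

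ADAMTS9-AS2 rose while the metalloprotease gene ADAMTS9 fell. ADAMTS9-AS2 (chr3:64684909-65053439, plus strand) starts 3091 bases inside ADAMTS9 and shares no exon with it. It had 1.28, 1.02 and 1.53 CPM in normoxia and 9.34, 11.9 and 10.5 CPM in hypoxia, and ADAMTS9 had 5.51, 5.70 and 6.07 CPM in normoxia and 2.16, 2.54 and 2.54 CPM in hypoxia. The log2 changes were 3.04 ± 0.16 (edgeR adjusted p = 3.62e-08) and -1.25 ± 0.13 (edgeR adjusted p = 8.88e-06), and the ratio rose by 4.30 ± 0.16. In FPKM the order of the genes turned, from 0.510 against 1.13 in normoxia to 3.42 against 0.438 in hypoxia.

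AC010547.1 rose from 0.159 ± 0.103 to 1.12 ± 0.198 CPM while its partner AC010547.4 fell from 1.32 ± 0.416 to 0.0561 ± 0.0972 CPM. AC010547.1 reached the filter in hypoxia only, which fixed much of its direction. At a smaller change, CYP1B1-AS1, opposite the cytochrome P450 gene CYP1B1, rose from 29.7 ± 3.50 to 40.3 ± 2.90 CPM and CYP1B1 fell from 66.0 ± 3.20 to 34.7 ± 2.95 CPM, a ratio change of 1.37 ± 0.16 (limma adjusted p = 0.000335).

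In the other direction, VPS9D1-AS1 fell while VPS9D1, a gene of the endosomal VPS9 domain family, rose. VPS9D1 had 6.87, 6.55 and 6.32 CPM in normoxia and 10.5, 10.6 and 9.94 CPM in hypoxia, a log2 change of 0.65 ± 0.09 (edgeR adjusted p = 6.96e-05), so that the ratio fell by 4.62 ± 0.10 (limma adjusted p = 7.85e-07). The antisense gene went from 15.2 to 0.913 FPKM and VPS9D1 from 2.68 to 3.81 FPKM, so their order turned. AL121929.2, inside SH3PXD2A, a scaffold gene of invasive cell protrusions, had 3.15, 4.10 and 3.70 CPM in normoxia and 0.785, 1.09 and 1.05 CPM in hypoxia, while SH3PXD2A rose from 130.2 ± 1.21 to 296 ± 11.3 CPM. AC087741.1 fell from 20.9 ± 1.49 to 14.4 ± 1.04 CPM opposite CARD14, a gene of NF-kappa-B signalling, which rose from 1.22 ± 0.183 to 10.0 ± 1.68 CPM. IDI2-AS1 fell from 1.59 ± 0.301 to 0.403 ± 0.353 CPM opposite the sterol synthesis gene IDI1, which rose from 29.2 ± 3.03 to 86.0 ± 6.43 CPM. IDI2-AS1 reached the filter in normoxia only, which fixed much of its direction.

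AC073957.2 fell from 1.68 ± 0.0565 to 1.03 ± 0.250 CPM opposite the receptor gene GPR146, which rose from 0.925 ± 0.129 to 15.5 ± 0.698 CPM. The call of AC073957.2 was lost with DESeq2 (adjusted p = 0.0612) and without hypoxia C6 (adjusted p = 0.0692), while its ratio to GPR146 fell by 4.79 ± 0.25. The per-library ratios of 10 pairs are plotted.

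**Figure D4:**
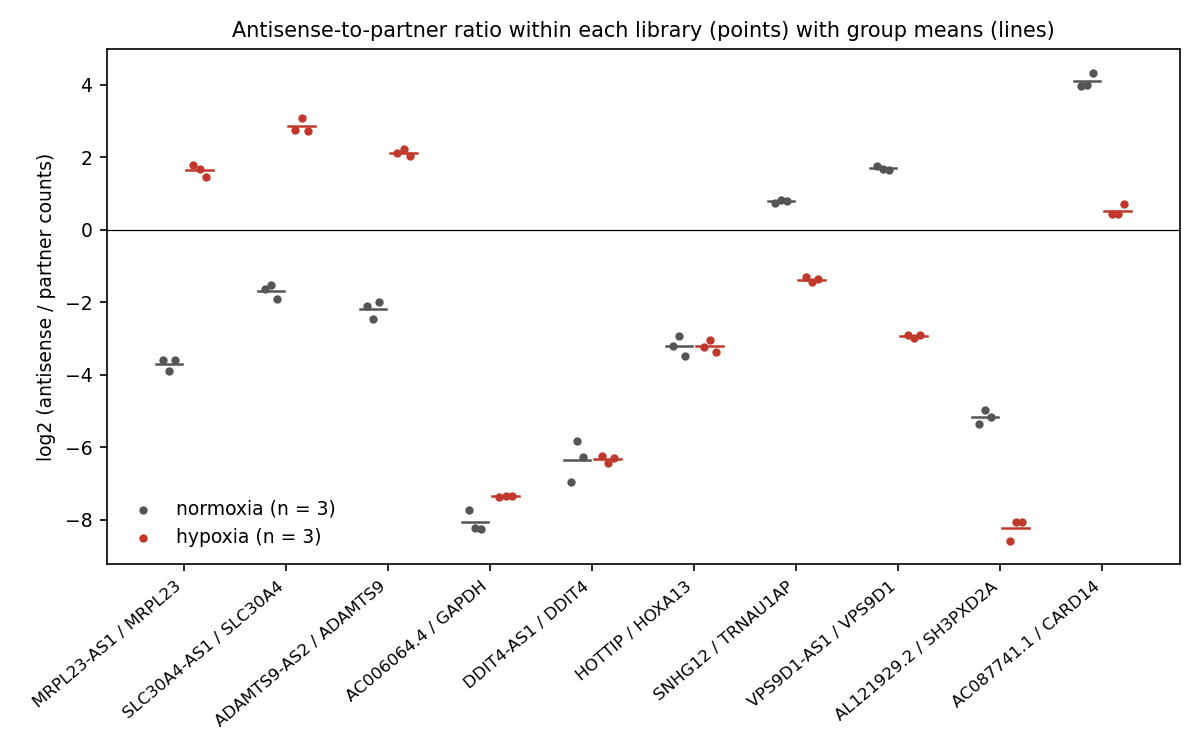
Log2 ratio of antisense to partner counts (vertical axis) in each normoxia and hypoxia library (points) with group means (lines), for 10 pairs named below the axis. The height depends on the lengths of both genes, and the step between groups is what the test reads: it is upward in the first 4 pairs, -0.01 to 0.02 in DDIT4-AS1 and HOTTIP and downward in the last 4.

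The HOXA cluster, a row of developmental transcription factor genes, holds 2 of the genes named whatever their values, which moved in opposite directions. HOTTIP, known as an activator at the HOXA13 end of the cluster, had 2.17, 2.80 and 1.99 CPM in normoxia and 10.6, 10.8 and 9.01 CPM in hypoxia, and HOXA13 had 19.9, 21.6 and 22.4 CPM in normoxia and 99.9, 88.1 and 94.1 CPM in hypoxia. The log2 changes were 2.12 ± 0.15 (edgeR adjusted p = 2.74e-07) and 2.14 ± 0.06 (edgeR adjusted p = 4.28e-10), and that of the ratio was -0.01 ± 0.17 (limma adjusted p = 0.96). HOTAIRM1 (chr7:27095647-27100265, plus strand) had 5.01, 4.42 and 4.84 CPM in normoxia and 2.67, 2.48 and 2.73 CPM in hypoxia, a log2 change of -0.86 ± 0.13 (edgeR adjusted p = 0.000164). No library of either group overlapped the other group in HOTTIP or in HOTAIRM1.

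Of the 20 genes named whatever their values, 11 have the antisense type in this annotation, 9 were tested, 5 rose, 2 fell and 2 did not pass (all tested genes: 36.5% rose and 36.3% fell), so the share that changed, 77.8%, was near the 72.8% of all genes. ZEB1-AS1 rose from 6.15 ± 0.570 to 11.5 ± 0.175 CPM (log2 change 0.91 ± 0.10; edgeR adjusted p = 9.45e-06), while ZEB1, a regulator of epithelial-mesenchymal transition, had -0.08 and did not pass (edgeR adjusted p = 0.157). SBF2-AS1 had 3.07, 1.17 and 2.04 CPM in normoxia and 5.97, 8.36 and 7.40 CPM in hypoxia, a log2 change of 1.79 ± 0.27, while SBF2 fell by 0.44. ZEB2-AS1 rose from 0.159 to 0.374 CPM at the edge of the threshold (edgeR adjusted p = 0.0478), and its call was lost with DESeq2 (adjusted p = 0.189), library totals (0.0775), no filter (0.0955) and without any of hypoxia C4, C5 or C6 or normoxia C1 or C3 (0.0568 to 0.185). ZEB2 itself rose from 28.6 to 59.4 CPM.

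CDKN2B-AS1, also called ANRIL, at a locus of cell cycle inhibitors, had 7.43, 7.17 and 9.10 CPM in normoxia and 9.17, 10.9 and 9.82 CPM in hypoxia (log2 change 0.33 ± 0.12; edgeR adjusted p = 0.0244). The lowest hypoxia library was just above the highest normoxia library. The call was lost with DESeq2 (adjusted p = 0.0606), with library totals (0.182) and without hypoxia C5, normoxia C1 or normoxia C2 (0.088 to 0.112), and the most abundant transcript alone had a log2 change of -0.05. CDKN2B, a kinase inhibitor gene, rose from 37.1 ± 1.83 to 56.2 ± 2.98 CPM. KCNQ1OT1, the imprinted antisense RNA of the potassium channel gene KCNQ1, had 75.9, 83.6 and 85.7 CPM in normoxia and 92.5, 82.1 and 93.0 CPM in hypoxia with overlapping groups and did not pass (edgeR adjusted p = 0.0928), though it passed among genes of 1 CPM or more in 3 libraries and without hypoxia C5 (edgeR adjusted p = 0.0303 and 0.016). KCNQ1 rose from 0.327 to 1.26 CPM. AFAP1-AS1 had 0.185 and 0.365 CPM and did not pass (edgeR adjusted p = 0.0517), and HAGLR of the HOXD cluster had 0 counts in all 6 libraries.

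Small nucleolar RNAs (snoRNAs) guide chemical modification of ribosomal RNA. An antisense gene was counted as a host when a snoRNA gene lay within its span on the same strand. Such hosts numbered 15, of which 9 were tested, 5 rose, 3 fell and 1 did not pass (all tested genes: 36.5% rose and 36.3% fell). SNHG12, the host of 5 snoRNA genes, had 47.1, 48.3 and 51.1 CPM in normoxia and 28.4, 27.7 and 26.1 CPM in hypoxia, a log2 change of -0.83 ± 0.06 (edgeR adjusted p = 2.31e-07). TRNAU1AP, which acts in selenocysteine incorporation and overlaps it by 8 exonic bases at the 3′ ends, rose from 28.2 ± 0.858 to 70.9 ± 4.41 CPM. In FPKM the order turned, from 37.1 against 21.4 to 20.7 against 55.3. SNHG7 fell from 17.9 ± 0.859 to 11.9 ± 1.10 CPM (edgeR adjusted p = 0.000103).

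TMEM161B-DT fell from 3.41 ± 0.728 to 2.25 ± 0.187 CPM in parallel with TMEM161B, which fell from 35.0 ± 1.57 to 22.8 ± 3.44 CPM, and lost the call without normoxia C2 (adjusted p = 0.0626) and for its most abundant transcript alone (adjusted p = 0.51). UBA6-DT rose from 3.11 ± 0.550 to 12.9 ± 0.995 CPM (edgeR adjusted p = 1.92e-07). GPRC5D-AS1 had 1.29 and 1.90 CPM with overlapping groups and did not pass (edgeR adjusted p = 0.0647), though it passed among genes of 1 CPM or more in 3 libraries and without hypoxia C5 (edgeR adjusted p = 0.0461 and 0.0171). SCARNA9, itself a small RNA gene of Cajal bodies with 353 exonic bases, counts as a host only by the span rule. It rose from 5.17 ± 0.822 to 9.27 ± 2.33 CPM (edgeR adjusted p = 0.0019). Exons of SNHG12, SNHG7 and SCARNA9 overlap small RNA genes on the same strand, and those of CYP1B1-AS1 the pseudogene RPL7P12, so the counts of these genes are uncertain. Exons of ALOX12-AS1, CDKN2B-AS1, HOTAIRM1, HOTTIP, THUMPD3-AS1 and ZEB2-AS1 also overlap other annotated genes on the same strand. The counts of these antisense genes may hold reads of the genes they overlap.

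The most abundant changed genes of each orientation complete the rule. Inside their partners, AL365181.3 in BCAN, a brain matrix proteoglycan gene, rose from 47.3 ± 3.60 to 142 ± 4.59 CPM, and AC138207.7 in RNF135 rose from 13.4 ± 0.493 to 17.7 ± 1.05 CPM while RNF135 fell from 7.57 ± 0.288 to 5.66 ± 0.439 CPM. Among genes that span the partner, WEE2-AS1 rose from 3.59 ± 0.687 to 12.1 ± 2.24 CPM, THUMPD3-AS1 rose from 15.6 ± 1.15 to 34.4 ± 3.10 CPM with a smaller rise of THUMPD3 (from 37.2 to 44.1 CPM), and NUTM2B-AS1 fell from 28.0 ± 1.74 to 23.6 ± 1.28 CPM. NUTM2B-AS1 lost the call when only transcripts clear of opposite exons were counted (adjusted p = 0.667). UGDH-AS1, tail to tail with SMIM14, rose from 70.3 ± 2.25 to 83.4 ± 5.77 CPM (edgeR adjusted p = 0.0023), less than SMIM14 (from 14.4 to 26.6 CPM), and lost the call with library totals (adjusted p = 0.158). AC067930.4, which overlaps no coding gene, rose from 6.48 ± 1.30 to 20.6 ± 3.60 CPM. TBC1D22A-DT, which overlaps no coding gene and starts 54 bases from TBC1D22A, had 4.10, 4.47 and 4.31 CPM in normoxia and 20.5, 22.2 and 19.2 CPM in hypoxia (log2 change 2.26 ± 0.09), while TBC1D22A rose by 0.92.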

How the data were processed

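RNA of 3 normoxia and 3 hypoxia libraries labelled Huh7 was measured by RNA-seq. Cutadapt, HISAT2 and RSEM on GRCh38 (hg38) are named, without versions, per the submitters' processing notes. The notes do not name the annotation release or the strand setting (not given in the sources used here). For 251062 transcript rows the authors deposited expected counts per library and a transcript length, per the file headers, and 6 further columns of per-library values were not used. Rows matched to a GENCODE 29 gene numbered 202907, and the 48155 others held 6.12 to 6.39% of counts and were left out. Deposited expected counts were summed per gene and rounded to whole numbers, and CPM values were computed from these sums with TMM scaling. Levels between genes were compared in FPKM, computed from the deposited expected counts, the full deposited transcript length and the library total, and summed per gene.

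Members and gene lists were chosen with earlier results of these data known. Hypoxia was compared with normoxia by edgeR 4.0.16 (quasi-likelihood test after filterByExpr, R 4.3.3), with Benjamini-Hochberg adjustment over 17396 genes. The SE is the log2 change divided by the square root of the F statistic. Ratios, log2 of antisense over partner counts with 0.5 added to each, were tested by limma 3.58.1 over 2848 pairs. The edgeR steps were also run on simulated counts, with a known shift put into some antisense genes. Recovery was 2.99% of 67 genes for a shift of 1.5-fold, 26.9% of 67 for 2-fold and 71.2% of 66 for 4-fold, among 17293 genes tested. False calls were 5 among 17097 genes without a shift. In the data 72.8% of genes were called, a far larger share than was shifted there. The adjusted threshold is easier to reach with more changed genes, so these rates are not those of the data. Small shifts were mostly missed in the simulation. An antisense gene that did not pass in the data is not shown to be unchanged. The labels give no batch or date.

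Named genes were the 8 largest rises and falls (groups not overlapping, mean of 1 CPM or more in a group), the 6 highest in FPKM, the 5 most divergent opposite pairs in each direction, all tested genes opposite a HIF or ferroptosis gene, 20 genes named whatever their values, up to 6 snoRNA hosts and up to 3 of each orientation, with their partners. A pair chosen by this rule and the partner of another named gene are not reported here. Symbols are current names, or the clone name of the annotation. The alternatives were DESeq2 1.42.0, library totals, other filters, other transcripts, partners and pseudocounts, and leaving out each library.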

Additional observations from a re-analysis of the deposited data

How the results depend on the processing

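Of the 1059 tested antisense genes, 621 changed (459 rose, 162 fell), and rises outnumbered falls under every alternative run. Rises and falls were 417 and 134 of 2083 tested with DESeq2, 398 and 189 of 1059 with library totals and 536 and 186 of 3188 with no filter. With the most abundant transcript of each gene they were 395 and 121 of 1005. The share that changed was 58.6% in the main run. It was 26.5% with DESeq2, 55.4% with library totals, 22.6% with no filter and 51.3% with the most abundant transcript. Fewer genes were tested with 1 CPM or more in 3 libraries, where 385 changed (279 rose, 106 fell), 152 pairs moved in the same and 81 in the opposite direction. Fewer were also tested with transcripts clear of opposite-strand exons alone, where 235 changed (176 rose, 59 fell). Without each library in turn 563 to 607 changed, 422 to 462 rose, 137 to 154 fell, 219 to 256 pairs moved together and 108 to 119 apart. The ratio changed in 366 to 387 pairs without each library in turn (255 to 281 rose, 105 to 115 fell) and in 414 to 497 under the other settings. The log2 change of CDKN2B-AS1 reversed to -0.05 (edgeR adjusted p = 0.871) with its most abundant transcript, and the cause was not tested. No paired analysis was possible because the columns carry no replicate numbers shared between the groups. Below the filter on low counts were 4514 of 5573 antisense genes, 2385 of them with no count in any library, so a change in them was not detectable here; the part of depth, length and absent transcription in this was not tested.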

Other observations

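By chromosome, the 61 tested antisense genes of chromosome 19 had 32 rises and 1 fall, and the 22 of chromosome 20 had 14 rises and 1 fall. Over all tested genes, 41.5% rose and 28.8% fell on chromosome 19, and 41.8% rose and 32.3% fell on chromosome 20, so rises outnumbered falls there beyond the antisense class too. The 51 of chromosome 7 had 18 rises and 15 falls, and the 50 of chromosome 10 had 18 rises and 13 falls, where all tested genes gave 34.6% and 37.0% on chromosome 7 and 33.7% and 40.6% on chromosome 10. These chromosomes were chosen after their counts were seen, and the differences between them were not tested.

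PCMTD1-DT fell from 1.92 to 0.392 CPM, while its summed FPKM was 0.533 in normoxia and 0.341 in hypoxia. The count and the length-scaled level of this gene therefore differ in the size of the change.

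A single annotated exon was found in 22.7% of the antisense genes that rose, 27.2% of those that fell, 29% of those tested that did not pass and 9.48% of those not tested.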
